A study of Mus musculus with 18 samples.

Results

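The genes described here are 10 that mature white fat cells (adipocytes) are known for, Adipoq, Lep, Retn, Cfd, Plin1, Plin4, Cidec, Fabp4, Lpl and Pparg, measured in C57BL/6J mouse epididymis, in its caput. The caput is the first stretch of the duct in which sperm mature, and the duct lies against the epididymal fat pad. Members were found by symbol in 18 count tables, and all 10 were present among the 53819 gene entries of each table. The libraries form 6 groups of 3: control mice, mice given 6% ethanol (EtOH) and mice given 10% EtOH, each collected at 10 weeks of treatment and again after cessation of EtOH, which the series title puts at 1 month. Control mice of the cessation time form their own group. The sources used here do not state how the EtOH was given, for how long the cessation mice had received it, the age of the mice, or whether each library is 1 animal. The p-values of group comparisons therefore set differences only against the spread of samples within groups, which may be technical. Replicates are numbered as deposited. The identifier in the label of 6% EtOH cessation replicate 1 differs from the one in its count table, and the label was followed. The 10% EtOH 10 weeks replicate 3 carries an identifier of another form than its group.

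An adipocyte stores triglyceride in a large droplet, releases fatty acids when the body needs fuel, and secretes hormones. Lipoprotein lipase, encoded by Lpl, frees fatty acids from circulating lipoproteins, and Fabp4 carries them inside the cell. Perilipin 1 (Plin1), perilipin 4 (Plin4) and Cidec coat or enlarge the droplet. Adiponectin (Adipoq), leptin (Lep), resistin (Retn) and adipsin, also called complement factor D (Cfd), are secreted. Pparg encodes the nuclear receptor that drives adipocyte differentiation, acting with C/EBP factors. Some of these genes are also active in other cells: Fabp4 is also made by endothelium and macrophages, Lpl by muscle and macrophages, and Plin4 by muscle. In a bulk sample such as these, fewer cells of a type and less RNA per cell cannot be told apart.

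Promoter sequence was at hand for 8 of the 10 members, in 11 windows of 250 bases before a transcript start, from RefSeq on build GRCm38.p6. Those of 4 genes whose levels went together over the 18 libraries, and of Plin4, which followed them less closely, are printed. They show what these droplet and hormone genes do and do not share in letters near the start. Cfd and Retn also went together with Adipoq, and their windows, not printed, held no match to any motif searched. Cidec had 2 windows, and the one with a motif match is shown, the other holding no match. Each runs 5′ to 3′ on the gene's strand. Capitals mark matches on either strand to the C/EBP motif TTGCNNAA, the CCAAT box CCAAT or the TATA box TATAA, which can overlap each other.
Adipoq, chr16:23146286-23146535 (+): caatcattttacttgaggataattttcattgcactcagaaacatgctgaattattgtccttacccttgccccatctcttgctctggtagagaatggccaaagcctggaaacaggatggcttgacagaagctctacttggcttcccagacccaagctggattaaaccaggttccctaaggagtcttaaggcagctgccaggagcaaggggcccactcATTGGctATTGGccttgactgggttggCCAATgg
Lep, chr6:29059971-29060220 (+): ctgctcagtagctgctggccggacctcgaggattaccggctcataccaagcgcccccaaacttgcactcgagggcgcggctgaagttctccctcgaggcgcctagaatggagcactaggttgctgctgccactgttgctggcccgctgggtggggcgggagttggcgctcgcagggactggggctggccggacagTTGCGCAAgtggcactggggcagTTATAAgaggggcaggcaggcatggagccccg
Plin1, chr7:79732777-79733026 (-): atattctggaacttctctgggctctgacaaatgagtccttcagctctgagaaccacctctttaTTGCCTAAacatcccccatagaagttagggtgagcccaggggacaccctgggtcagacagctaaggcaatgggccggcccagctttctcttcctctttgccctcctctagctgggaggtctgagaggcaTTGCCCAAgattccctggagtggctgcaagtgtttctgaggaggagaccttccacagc
Cidec, chr6:113434765-113435014 (-): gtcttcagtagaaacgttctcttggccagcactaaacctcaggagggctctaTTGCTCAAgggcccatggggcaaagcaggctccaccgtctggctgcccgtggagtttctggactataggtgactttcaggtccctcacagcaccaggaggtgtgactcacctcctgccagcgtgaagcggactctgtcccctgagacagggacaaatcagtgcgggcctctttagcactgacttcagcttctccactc
Plin4, chr17:56109783-56110032 (-): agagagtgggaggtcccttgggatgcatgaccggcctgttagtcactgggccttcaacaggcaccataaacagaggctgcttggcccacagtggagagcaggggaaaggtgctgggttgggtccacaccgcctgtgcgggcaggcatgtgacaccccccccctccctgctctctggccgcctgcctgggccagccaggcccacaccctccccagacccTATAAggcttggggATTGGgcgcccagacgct
A C/EBP match stood in 4 of the 11 windows, those of Lep, Plin1, Cidec and Pparg, against 9.56% of 32851 promoter windows of the same length. In Lep it began 55 bases before the start, and Plin1 held 2 matches, 187 and 58 bases before it. The CCAAT box was found in Adipoq, Plin4 and Pparg, with 33.8% of all windows holding one. The TATA box was found in Lep, Plin4 and Pparg, against 22.8% of all windows. The direct repeat bound by PPAR factors, AGGTCA given 2 times with 1 base between, was in 0 of the 11 windows and in 0.0335% of all. A match describes letters and does not show binding.

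Libraries held 10719320 to 21067237 assigned reads, so that 3 reads, the limit that a count of 0 allows, amounted to 0.151 to 0.283 CPM (reads of a gene per 1000000 reads of the library, scaled between libraries by the TMM factors of edgeR). Replicates of a group differed far beyond sampling noise, with a chi-square per degree of freedom of at least 5.79. Low counts came mostly in pairs: of genes with 1 to 100 reads, 65.8% to 69.7% had an even count, against 47.4% to 51.6% of genes over 1000 reads. Whether mates of a pair were counted apart was not tested, and intervals given here cover counting error only. As a check of the labelled tissue, Gpx5, a secreted enzyme that marks caput principal cells, had at least 250478 reads in every library.

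Of the 10 genes, 8 lay closer to the detection limit than Plin4 and Lpl. Per kilobase of exon, the mean level over libraries was highest for Plin4 at 7.07 CPM, followed by Cfd at 1.70, Lpl at 1.04, Fabp4 at 0.746, Adipoq at 0.518, Cidec at 0.342, Retn at 0.179, Lep at 0.175, Plin1 at 0.121 and Pparg at 0.105. The lowest Plin4 library, at 4.99 CPM per kilobase, lay above the highest library of each other gene apart from Cfd, whose highest was 6.84. All other neighbours in that order overlapped in their range over libraries. Exon length here was the union over all annotated transcripts of a gene, 4.489 kb for Fabp4 and 10.478 kb for Lpl. It can exceed the length of the transcripts present, so the order depends on this choice.

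Among the hormones, Adipoq had a median of 5.5 reads per library and 197 reads in all. At 10 weeks its level was 1.34, 0.394 and 0.116 CPM in control replicates 1 to 3, 0.510, 0.871 and 3.20 in 6% EtOH, and 0.100, 0 and 0.472 in 10% EtOH. After cessation it was 0.237, 0 and 0.265 in control, 0.139, 2.63 and 1.51 in 6% EtOH, and 0, 0.225 and 0.865 in 10% EtOH. The highest libraries were 6% EtOH 10 weeks replicate 3, with 48 reads and a 95% exact Poisson interval of 2.36 to 4.25 CPM, and 6% EtOH cessation replicate 2, with 40 reads and 1.88 to 3.58. Within groups the spread was as large as the mean: Adipoq was at 0.615 ± 0.639 CPM in the 10-week controls (SD, n = 3) and 1.53 ± 1.46 in 6% EtOH. Leptin was highest in the same libraries. Lep was at 0.719, 0.225 and 0 CPM in control, 0.956, 0.929 and 2.27 in 6% EtOH and 0, 0.134 and 0.708 in 10% EtOH at 10 weeks. After cessation Lep was at 0.356, 0.123 and 0.397 in control, 0.139, 1.97 and 0.943 in 6% EtOH and 0.265, 0.150 and 0.288 in 10% EtOH. At 10 weeks all 6% EtOH libraries lay above all control libraries, as for 9.67% of all genes tested. After cessation replicate 1 of 6% EtOH did not.

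Adipsin spread more between replicates than Adipoq and Lep did. Cfd was at 1.44, 0.450 and 0.231 CPM in control, 1.53, 4.36 and 3.40 in 6% EtOH, and 0, 0 and 3.72 in 10% EtOH at 10 weeks. After cessation it was at 0, 0.184 and 0.0661 in control, from 4 reads in 3 libraries, 0.836, 6.31 and 2.64 in 6% EtOH, and 0, 0.451 and 2.52 in 10% EtOH. At both times the 6% EtOH libraries lay above all controls, while 10% EtOH held both libraries with no read and libraries at the 6% level. Of all genes tested, 9.67% lay above the controls in this way at 10 weeks, and 4.01% did not overlap in either direction after cessation. At 10 weeks the nearest libraries held 28 Cfd reads in control and 24 in 6% EtOH, so that the scaling decided their order. The share of Cfd in the reads of Cfd and Adipoq differed between some libraries. Cfd made up 51.5% of the 99 reads of both genes in 6% EtOH 10 weeks replicate 3 (exact 95% interval 41.3% to 61.7%) and 83.3% of 90 reads in 6% EtOH 10 weeks replicate 2 (74.0% to 90.4%). In 6% EtOH cessation replicate 2 it was 70.6% of 136 reads (62.2% to 78.1%). These intervals take reads as independent and may be too narrow, as low counts came mostly in pairs. Whether the ratio varied over libraries was not tested. Resistin was barely detected: Retn had 0 reads in 6 libraries, 78 reads in all, and its highest level was 1.64 CPM, in 6% EtOH cessation replicate 2.

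Of the droplet genes, Plin1 and Cidec were low and uneven and Plin4 was abundant and even. Plin1 was at 0.257, 0 and 0.231 CPM in control, 0.637, 1.22 and 1.47 in 6% EtOH and 0, 0 and 0.826 in 10% EtOH at 10 weeks. After cessation Plin1 was at 0.356, 0 and 0.265 in control, 0.139, 2.56 and 0.755 in 6% EtOH and 0.265, 0.301 and 0.865 in 10% EtOH. The 10-week 6% EtOH libraries all exceeded the controls, as for 9.67% of all genes tested, and 1 of the 3 cessation libraries did not. Cidec had between 1 and 73 reads, and its level in 6% EtOH cessation was 0.139, 4.80 and 0.189 CPM, against 0.356, 0.184 and 0.265 in the cessation controls. Replicate 2 thus held nearly all Cidec signal of that group. At 10 weeks Cidec was at 0.411, 0.113 and 0.116 in control, 0.255, 0.465 and 1.94 in 6% EtOH, and 0.100, 0.134 and 0.590 in 10% EtOH, with overlap between all groups.

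Plin4 had 384 to 881 reads in every library. At 10 weeks it was at 45.2, 45.4 and 46.5 CPM in control, 36.6, 50.01 and 48.3 in 6% EtOH, and 34.6, 37.4 and 34.8 in 10% EtOH. After cessation it was at 34.8, 33.2 and 35.0 in control, 48.9, 57.5 and 44.2 in 6% EtOH, and 40.4, 28.9 and 33.6 in 10% EtOH. As mean ± SD (n = 3) these were 45.7 ± 0.676, 45.0 ± 7.27 and 35.6 ± 1.56 CPM at 10 weeks and 34.3 ± 0.981, 50.2 ± 6.72 and 34.3 ± 5.81 after cessation. The 10% EtOH libraries lay below all controls at 10 weeks, as for 15.5% of all genes tested. The 6% EtOH libraries lay above all controls after cessation, where 4.01% of genes did not overlap in either direction. Plin4 shares 17 of its 5777 exon bases with Hdgfl2 on the opposite strand in the GENCODE annotation used, and whether counting used strand is not given in the sources used here.

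Fatty acid handling was split between both patterns. Fabp4 was at 3.08, 0.788 and 0.347 CPM in control, 2.29, 4.47 and 10.8 in 6% EtOH, and 0.100, 0.201 and 4.19 in 10% EtOH at 10 weeks. After cessation Fabp4 was at 3.80, 0.184 and 2.45 in control, 1.81, 14.8 and 3.21 in 6% EtOH, and 0, 1.95 and 5.91 in 10% EtOH. Groups overlapped at both times. Lpl was never under 65 reads and was at 8.68, 3.998 and 5.67 CPM in control, 7.84, 10.6 and 17.8 in 6% EtOH, and 6.53, 9.73 and 22.1 in 10% EtOH at 10 weeks. After cessation Lpl was at 14.2, 4.79 and 7.81 in control, 8.64, 15.96 and 8.96 in 6% EtOH, and 4.31, 12.6 and 25.5 in 10% EtOH. The highest Lpl libraries were replicate 3 of both 10% EtOH groups. Pparg, the regulator, had 2 to 16 reads and was at 3 reads or fewer in 9 of the 18 libraries, with a highest level of 1.15 CPM in 10% EtOH cessation replicate 3.

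**Figure D1:**
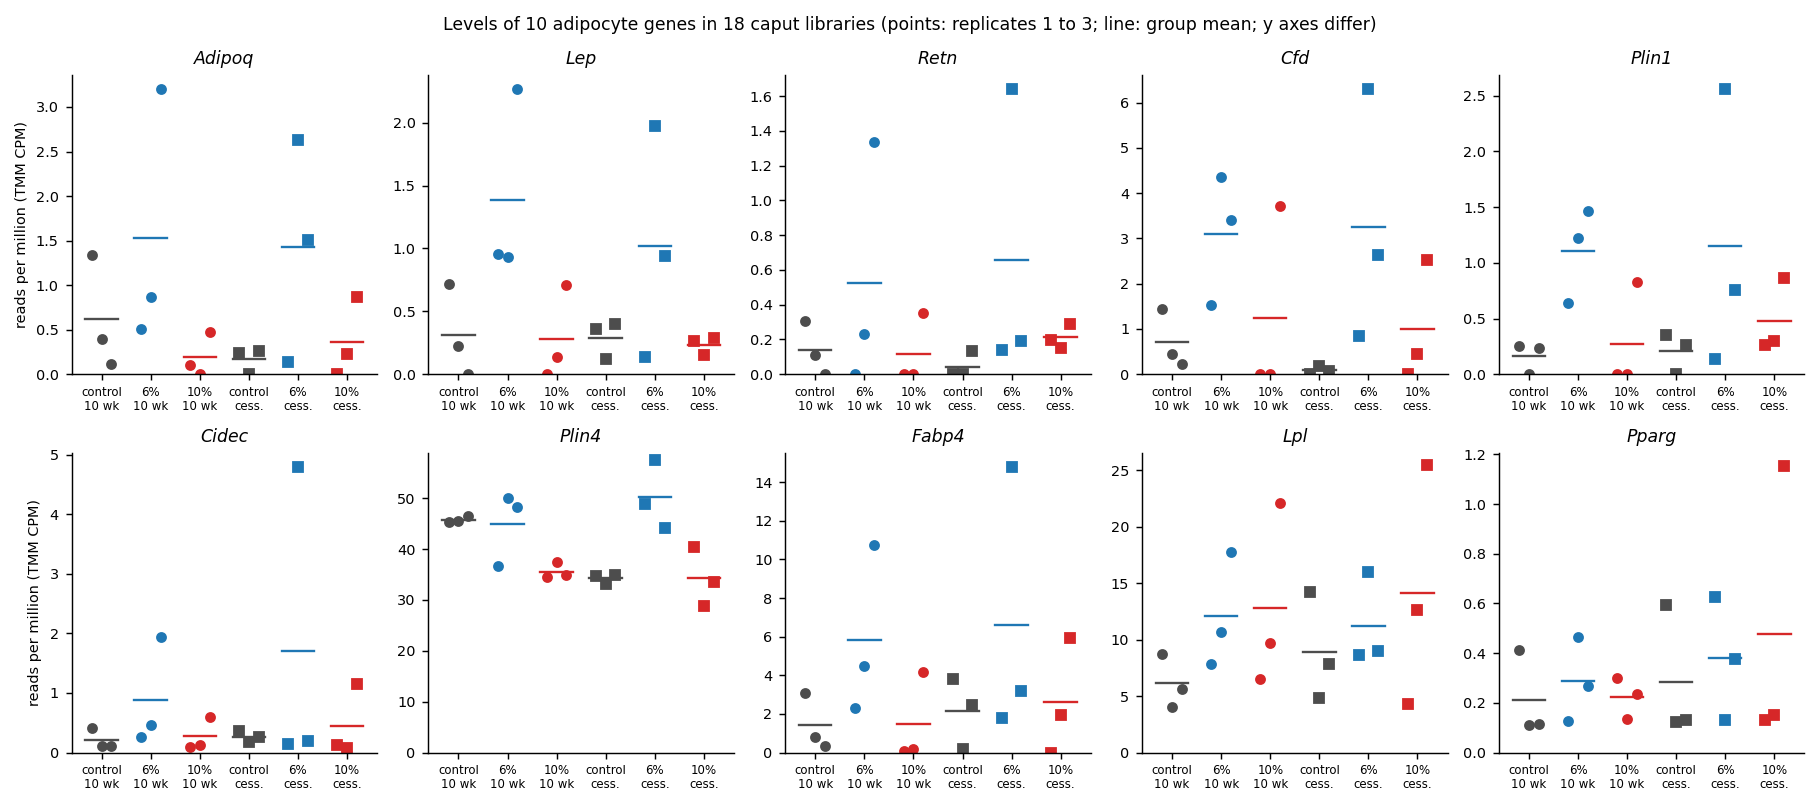
Level (TMM-scaled CPM) of each of the 10 genes by library. Points are replicates 1 to 3 of a group, lines are group means, circles are 10 weeks and squares cessation, and the y axes differ and start at 0. Replicate 3 of 6% EtOH at 10 weeks and replicate 2 after cessation are the highest in most panels, while Plin4 stays between 28.9 and 57.5.

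The 6% EtOH cessation replicate 2 was the highest library for 6 of the 10 genes and among the highest 2 for 8. The 6% EtOH 10 weeks replicate 3 was the highest for 2, and among the highest 2 for 6. The remaining 2 genes, Lpl and Pparg, were highest in 10% EtOH cessation replicate 3. Summed over the 8 genes other than Plin4 and Lpl, levels ran from 0.603 to 34.8 CPM with a median of 4.83. Even within 1 group the sum was 0.603, 0.604 and 11.1 in replicates 1 to 3 of 10% EtOH at 10 weeks. These high libraries were of ordinary size, with 15599991 reads at 10 weeks and 14800937 after cessation.

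Libraries of the same group differed widely in most members. The biological coefficient of variation, which is the part of the spread beyond counting noise, was 127% for Cfd, 113% for Fabp4, 97.5% for Adipoq, 96.1% for Plin1, 93.4% for Cidec and 80% for Lep. The trend at those levels was 42.2% for Cfd, 35.0% for Fabp4 and 51.2% for Adipoq, and these 6 genes lay at the 98.4th percentile or above among all tested genes. Lpl was at 48.4%, the 84.6th percentile. Plin4 was at 13.2%, below the trend of 17.6% at its level and at the 11.8th percentile. Groups accounted for 73.3% of the sum of squares of Plin4 log2 levels, 50.9% of Lep, 50.4% of Cfd, 46.1% of Plin1, 42.2% of Adipoq, 32.1% of Fabp4, 26.9% of Retn, 22.1% of Lpl, 19.1% of Cidec and 9.47% of Pparg, against a median of 40.6% over all tested genes.

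**Figure D2:**
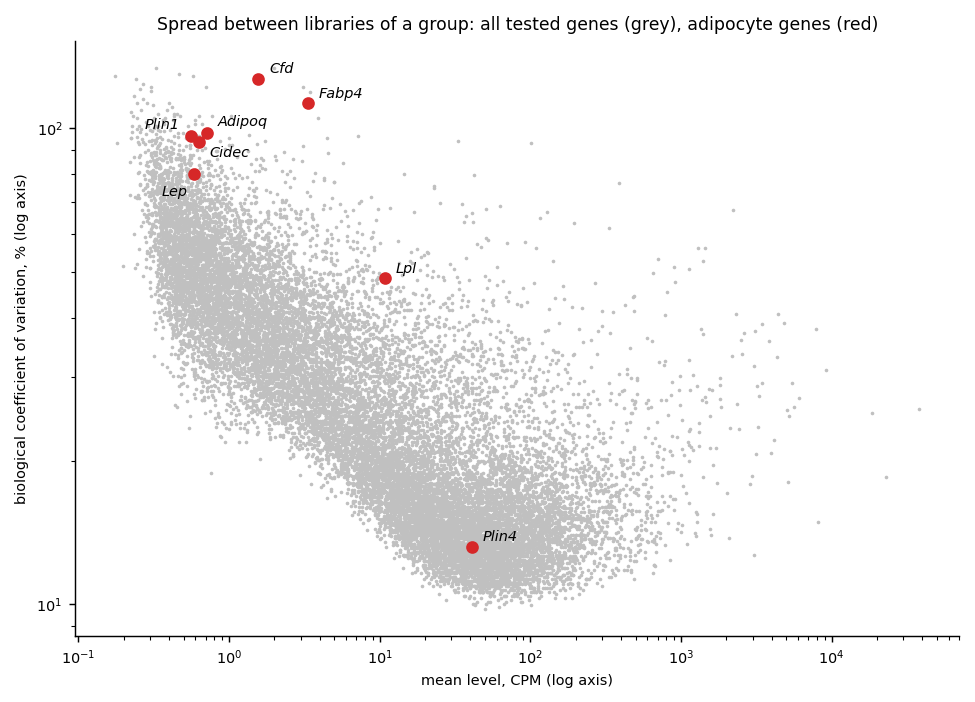
Biological coefficient of variation against mean level, both on log axes, for all 18618 tested genes (grey) and the 8 tested adipocyte genes (red). Cfd, Fabp4, Adipoq, Plin1, Cidec and Lep lie in the upper part of the cloud at their level, Lpl above most genes of its level and Plin4, at 13.2%, in the lower part.

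Most hormone and droplet genes varied with Adipoq over the 18 libraries. On log2 (CPM + 0.5), Pearson's r with Adipoq was 0.894 for Lep, 0.853 for Fabp4, 0.839 for Cfd, 0.835 for Retn, 0.823 for Plin1 and 0.787 for Cidec. Spearman's rho was 0.879, 0.880, 0.837, 0.704, 0.770 and 0.735 for the same genes. Permutation tests with 100000 resamples, 2-sided and adjusted over 9 genes by Benjamini-Hochberg, gave adjusted p of at most 3.3e-04 for each r; 1e-05 is about the smallest unadjusted p they can give. Plin4 (r 0.553, adjusted p 0.022; rho 0.435, adjusted p 0.0805) and Lpl (r 0.539, adjusted p 0.0235; rho 0.566, adjusted p 0.0213) were weaker. Pparg was at r 0.216 with an adjusted p of 0.391 in the permutation test, over values near the floor.

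Removing the 2 libraries farthest from the Adipoq median, which were the 2 named above, left r at 0.774 for Lep, 0.802 for Cfd, 0.766 for Fabp4, 0.682 for Plin1, 0.621 for Retn, 0.553 for Cidec, 0.404 for Lpl and 0.305 for Plin4, over 16 libraries, each lower than with them. For Pparg r was 0.470 without them, higher than with them. Within each time, over 9 libraries, r was 0.902 at 10 weeks and 0.899 after cessation for Lep, and 0.904 and 0.842 for Fabp4. For Cfd it was 0.755 and 0.915, and for Plin1 0.733 and 0.937. With group means removed, r was 0.882 for Lep, 0.838 for Fabp4, 0.813 for Retn, 0.792 for Cidec, 0.790 for Plin1, 0.75 for Cfd, 0.716 for Lpl, 0.220 for Pparg and 0.176 for Plin4. Levels of 1 library share its depth and scaling.

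A straight line of each gene's CPM on Adipoq CPM, fitted by least squares as a description, met the y axis at 0.116 CPM for Lep, 19.8% of its mean. For Plin1 the intercept was 25.5% of the mean and for Cfd 29.4%. Plin4 kept 37.2 CPM, or 91.2% of its mean, at an Adipoq level of 0, and Lpl kept 8.78 CPM, or 80.8%.

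**Figure D3:**
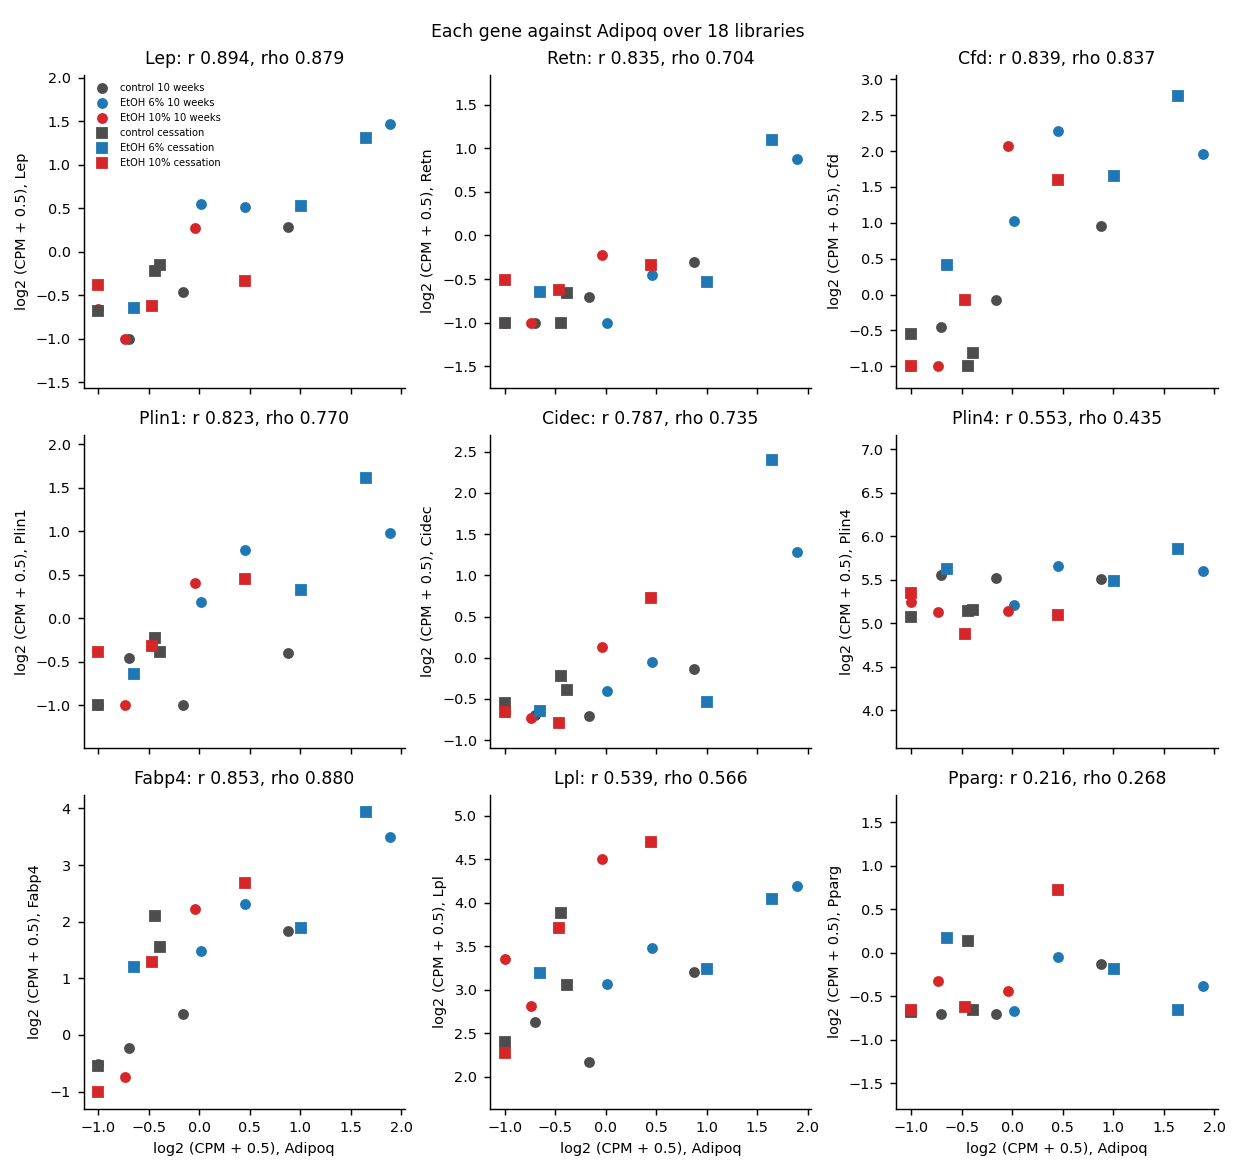
Each gene's log2 (CPM + 0.5) against that of Adipoq in the 18 libraries, coloured by treatment, with circles for 10 weeks and squares for cessation, and r and rho in each title. Points of Lep, Cfd and Fabp4 run along a line, while Plin4 runs nearly flat near 5.5 and Pparg is low in both libraries of highest Adipoq.

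To describe which other genes moved with Adipoq inside groups, every tested gene was fitted by edgeR's quasi-likelihood test with 1 term per group and the Adipoq level as a slope, over 18617 genes other than Adipoq. No gene passed an adjusted p of 0.05 (Benjamini-Hochberg), 401 had an unadjusted p under 0.05, and limma voom passed 0. A slope over 1 was found for 5 of the 7 members, against 0.107% of genes. Of all genes 2.15% had an unadjusted p under 0.05. By p, Cidec ranked 2 with a slope of 1.91 ± 0.33 (SE; log2 change per log2 unit of Adipoq; adjusted p 0.202), Fabp4 ranked 4 with 1.79 ± 0.40, Lpl 5 with 0.70 ± 0.18 and Lep 8 with 1.38 ± 0.38. Cfd had a slope of 1.60 ± 0.52, Plin1 1.37 ± 0.47 and Plin4 0.033 ± 0.062. The central 95% of all genes ran from -0.40 to 0.39. The 0.5 added to Adipoq levels before the log compresses them, so a gene in a fixed ratio to Adipoq can have a slope above 1.

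Slopes of the rest of the lipid pathway lay near 0. The median slope was -0.01 over 7 tested lipolysis genes, among them Mgll and Pnpla2, which split monoglycerides and triglycerides. It was 0.06 over 8 triglyceride synthesis genes led by Acsl1 and Gpd1, and 0.00 over 9 fatty acid synthesis genes led by Acly, Fasn, Scd1 and Elovl6. These genes were abundant, with means of 112 CPM for Mgll, 548 for Acsl1 and 1705 for Acly. The regulators that act with Pparg were likewise present, with Cebpa at a mean of 24.2 CPM and a slope of 0.12 ± 0.07. The list of 10 further genes enriched in adipocytes had a median slope of 0.09, against -0.01 over all genes, with 7 above and 3 below 0. Among them Car3, which encodes carbonic anhydrase 3, had a slope of 2.01 ± 0.43 and ranked 3, Adig 0.15 ± 0.11, Aoc3 0.01 ± 0.24 and Cyp2e1 -0.10 ± 0.42. Sncg, named after its values were seen, had 0.98 ± 0.29. Of 9 brown adipocyte genes 4 were tested, with a median slope of 0.11 and Prdm16 at a mean of 45.7 CPM. Ucp1, which uncouples respiration in brown fat, was not tested, with at most 6 reads and 0 in 10 libraries, and both were named after their values were seen.

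Lists for other cell types are given by their medians, beside -0.01 over all genes. Median slopes were -0.01 for 14 endothelial genes, 0.06 for 13 macrophage genes, -0.02 for 14 genes of adipose progenitors and fibroblasts, -0.01 for 9 mesothelial genes and 0.19 for 12 genes of the caput principal cells, 10 of them above 0. The 5 red blood cell genes had the highest median, 0.47, with Hbb-bs at 0.47 ± 0.29, and their summed level ran from 15.7 to 167 CPM. The part of these lists in the slopes of the adipocyte genes was not tested.

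**Figure D4:**
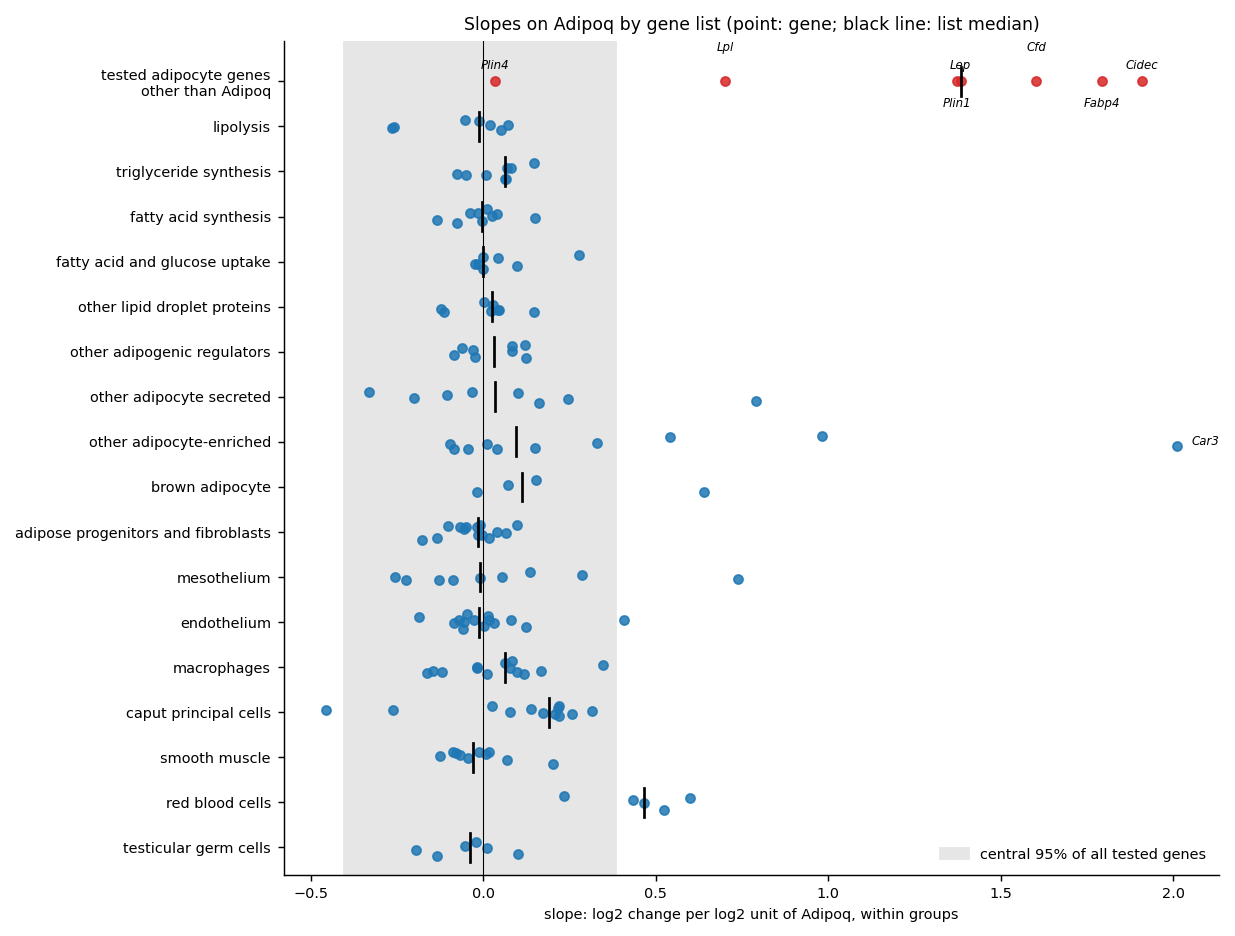
Slope of each gene on the Adipoq level within groups, by gene list, with list medians as black lines and the central 95% of all tested genes as a grey band. Of the 7 adipocyte genes in the top row 6 lie right of the band, Plin4 lies inside it at 0.033, and the red blood cell list has a median of 0.47.

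The genes outside the 10 members whose order over libraries was most like that of Adipoq, among 15547 candidates with an average level of at least 1 CPM in edgeR, were Car3 (Spearman's rho 0.914), Fcgbp (0.752), Carmil3 (0.700), Gm37736 (0.688), Gm13408 (0.679), 4933431E20Rik (0.673), Adck1 (0.659), Hp (0.648), Exosc7 (0.636) and 9030624G23Rik (0.636), over 18 libraries. Of all candidates 2.5% lay above 0.374. Car3 had 0 to 216 reads, and its highest libraries were the 2 highest of Adipoq, at 14.2 and 10.6 CPM. Hp, haptoglobin, which fat also makes, reached 6.96 CPM in 6% EtOH cessation replicate 2. By p of the slope the leading gene was Akr1b7, an aldo-keto reductase first known from vas deferens, at 3.03 ± 0.48 (adjusted p 0.16); it was named after its values were seen. Akr1b7 had 399 reads in 6% EtOH 10 weeks replicate 3 and 10 in 6% EtOH cessation replicate 2. Leaving out control 10 weeks replicate 1 or 10% EtOH 10 weeks replicate 1 made it the 1 gene that passed.

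At 10 weeks, 6% EtOH against control showed higher estimates for 7 of the 8 adipocyte genes that passed the low-count filter (Retn and Pparg did not pass it), and no gene passed the test. The log2 fold change was 2.70 ± 1.26 (SE) for Plin1 (unadjusted p 0.0457), 2.11 ± 1.36 for Cfd, 2.08 ± 1.03 for Lep, 2.03 ± 1.35 for Fabp4, 1.98 ± 1.24 for Cidec, 1.28 ± 1.13 for Adipoq, 0.98 ± 0.59 for Lpl and -0.02 ± 0.14 for Plin4, by edgeR over all 18 libraries. Their adjusted p was 1 (edgeR, Benjamini-Hochberg). Genes past an adjusted p of 0.05 were 0 of 18618, with 440 genes (2.36%) at an unadjusted p under 0.05, and DESeq2 and limma voom also passed 0. Of the members 1 of 8 had an unadjusted p under 0.05. The groups did not overlap for 3 members, Lep, Cfd and Plin1, all higher in 6% EtOH, as for 9.67% of all genes tested. For Cfd the nearest libraries held 28 reads in control and 24 in 6% EtOH, so that the scaling decided their order. The median over the 8 members was 2.01, against -0.01 over all genes. Most members rose and fell together over libraries, so such counts and medians, here and in the comparisons below, are not 8 independent results. Adipoq, Lep, Cfd, Plin1 and Cidec also met the low-count filter mostly in 6% EtOH libraries, which bears on each comparison that includes 6% EtOH. With no low-count filter 44 genes passed, and Fabp4 was the 1 member among them, at 2.05 ± 0.41. Its estimate was thus nearly unchanged, and its standard error was smaller than the 1.35 with the filter.

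For 10% EtOH against control at 10 weeks, estimates of the low members went both ways: 5 of 8 estimates were above 0, with a median of 0.20 against -0.01 over all genes. Adipoq was at -1.65 ± 1.29 and Cfd at 0.79 ± 1.37, where replicate 3 held all 63 Cfd reads of the 10% EtOH group. Without that library the Cfd estimate was -6.51. Plin4 was at -0.36 ± 0.14 (unadjusted p 0.0185, adjusted p 0.306, edgeR), and was the 1 member of 10 whose groups did not overlap (lower in 15.5% of genes). Lpl was at 1.06 ± 0.59 (adjusted p 0.441, edgeR). Again edgeR passed 0 of 18618 genes (2501, or 13.4%, at an unadjusted p under 0.05), limma voom passed 0 and DESeq2 passed 73, with no adjusted p for 6 of the members. The same fit on the 9 libraries of that time passed 1059 genes and 0 members. With no low-count filter 736 genes passed, Lpl among them at 1.07 ± 0.25.

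Between the doses at 10 weeks, 7 of 8 estimates were below 0 for 10% against 6% EtOH. Adipoq was at -2.93 ± 1.27 (unadjusted p 0.0335), Lep at -2.29 ± 1.06 (0.0443) and Plin4 at -0.34 ± 0.14 (0.0265), each with an adjusted p of 0.994 (edgeR). These were 3 of 8 members at an unadjusted p under 0.05, against 527 genes (2.83%). The groups did not overlap for Adipoq and Lep, both lower in 10% EtOH, as for 6.39% of genes (for Adipoq the nearest libraries held 8 reads each), and 0 genes passed by edgeR, DESeq2 and limma voom. With no low-count filter 60 passed, Fabp4 among them.

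After cessation, 6% EtOH against control gave estimates above 0 for each of the 8 tested genes. Cfd was at 5.17 ± 1.79 (unadjusted p 0.0108), Adipoq at 3.04 ± 1.31 (0.0327), Cidec at 2.66 ± 1.22 (0.0427), Plin1 at 2.45 ± 1.25, Lep at 1.79 ± 1.07, Fabp4 at 1.63 ± 1.32, Plin4 at 0.55 ± 0.14 (0.00103) and Lpl at 0.33 ± 0.59. The median was 2.12, against -0.01 over all genes. Here too the members varied together. Adipoq, Lep, Cfd, Plin1 and Cidec met the low-count filter mostly in 6% EtOH libraries, so member counts and this median are no independent support. Plin4 ranked 3 by p among all genes, yet every member had an adjusted p of 1 (edgeR). In this comparison 4 of 8 members were at an unadjusted p under 0.05, against 301 genes (1.62%), and 3 of 10 (Cfd, Retn and Plin4) did not overlap, all higher in 6% EtOH, where 4.01% of genes did not overlap in either direction. For Retn, which is not among those genes, the nearest libraries held 2 reads each, so that the scaling alone separated them. By edgeR and limma voom 0 genes passed, and by DESeq2 1, which was not a member. With no low-count filter 51 passed, with Cfd at 5.16 ± 0.72 and Fabp4 at 1.61 ± 0.40 among them. Both estimates were nearly those with the filter, and both standard errors were smaller. Leaving out 6% EtOH replicate 2 turned the Cidec estimate to -0.71 and that of Lpl to -0.02.

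With 10% EtOH after cessation 6 of 8 estimates against control were above 0, with a median of 0.70 against -0.02 over all genes. Cfd was at 3.45 ± 1.87 (unadjusted p 0.0837), Adipoq at 1.08 ± 1.41 and Plin4 at -0.0008 ± 0.14. Adipoq turned to -0.59 without 10% EtOH replicate 3. None of the 8 had an unadjusted p under 0.05, against 1240 genes (6.66%), 0 genes passed by edgeR, DESeq2 and limma voom, and 1 member of 10, Retn, did not overlap (higher in 2.49% of genes), again by libraries of 2 reads each. With no low-count filter 407 passed, with Cfd at 3.47 ± 0.75 among them, and 187 passed without control replicate 2. For 10% against 6% EtOH, 7 of 8 were below 0. Plin4 was at -0.55 ± 0.14 (unadjusted p 0.00104, rank 15, adjusted p 0.634, edgeR), Lep at -2.08 ± 1.11 and Adipoq at -1.96 ± 1.22. Plin4 was the 1 of 8 members at an unadjusted p under 0.05, against 1462 genes (7.85%), and the 1 that did not overlap (lower in 5.42%). By edgeR and limma voom 0 genes passed, by DESeq2 1, and with no low-count filter 585, none of them a member. These comparisons share libraries, the controls and both doses, so their estimates are not independent.

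**Figure D5:**
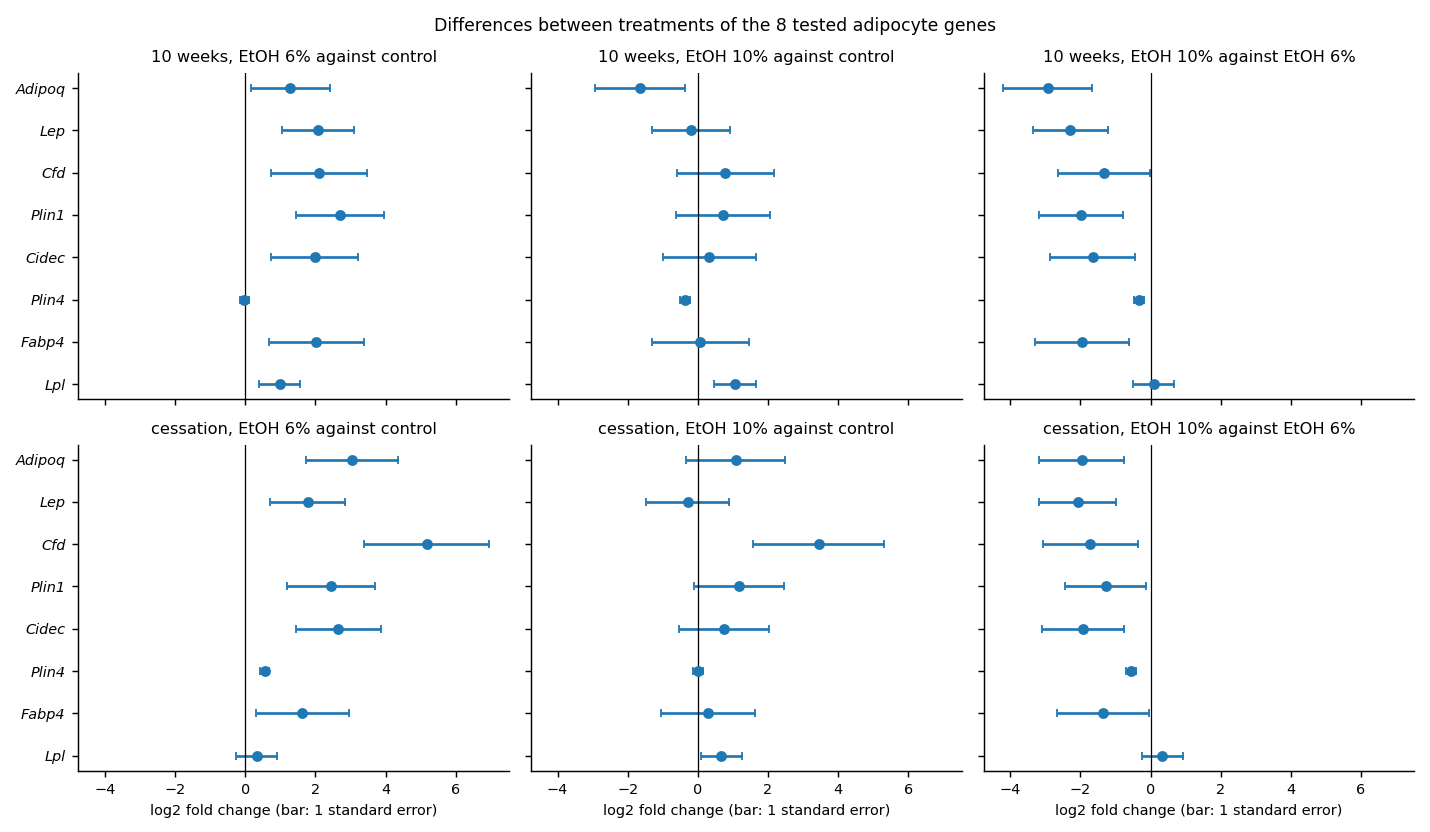
log2 fold change of the 8 tested adipocyte genes in 6 comparisons between treatments, with bars of 1 standard error. In both 6% EtOH against control panels the low genes sit right of 0, and bars of Plin4 are short beside all others.

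Between times, control libraries after cessation against control at 10 weeks had 22 genes past the threshold (0.118%), none of them a member, and between 0 and 2747 when 1 control library was left out. DESeq2 passed 993, with no adjusted p for 3 of the members and none of the other 5 among them, limma voom 3, and the fit with no low-count filter 1740, with Cfd among them at -3.00. Plin4 was at -0.41 ± 0.14 (adjusted p 0.139, edgeR), Cfd at -2.99 ± 1.88 and Adipoq at -1.85 ± 1.32. Plin4 and Cfd did not overlap and were lower after cessation, as for 13.1% of genes. Over all 3 treatments, cessation against 10 weeks had 3335 genes past the threshold (17.9%) and 0 of 8 members, with Adipoq at -0.36 ± 0.74. That count ran from 951, without 10% EtOH cessation replicate 3, to 5798, without control cessation replicate 2. Tested as the difference of the dose effect between times, 0 genes passed by edgeR and limma voom for either dose, and DESeq2 passed 0 for 6% and 2 for 10%, with 561 genes (3.01%) and 1386 genes (7.44%) at an unadjusted p under 0.05. Plin4 was at 0.57 ± 0.20 for 6% (unadjusted p 0.00961, rank 57, adjusted p 1, edgeR) and 0.36 ± 0.20 for 10%. Adipoq was at 1.76 ± 1.71 and 2.73 ± 1.91.

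Some genes of other cell types passed between times. That 0 of 8 members did so does not set the members apart, as 8 genes are few beside a share of 17.9%. Standard errors differed among the members. They were wide for Adipoq at 0.74 and Cfd at 0.89, against 0.29 for Myh11 of smooth muscle. Lpl had 0.34, and Plin4 had 0.08 at an estimate of -0.10. With no low-count filter Cfd passed over all 3 treatments. Over all 3 treatments, 11 of 14 endothelial genes and 8 of 10 smooth muscle genes rose after cessation and none fell, and 4 of 13 macrophage genes rose, beside the 17.9% of all genes that passed in either direction. With 1 library left out, 2 to 13 endothelial, 6 to 9 smooth muscle and 2 to 11 macrophage genes rose. Of the caput principal cell genes 4 of 12 fell (0 to 7 with 1 library left out). The summed level of the 14 endothelial genes was 61.5 to 127 CPM at 10 weeks and 80.9 to 488 after cessation. Among adipocyte lists beyond the members, 3 of 8 secreted genes rose (Agt, Nampt and Angptl4, the last a secreted inhibitor of lipoprotein lipase), with Agt at 0.79 ± 0.26 (1 to 4 with 1 library left out). Of the fatty acid synthesis genes 3 of 9 fell (1 to 5), among them Scd1 at -0.61 ± 0.20 and Elovl6 at -0.56 ± 0.19, and 1 rose (0 to 1), Mlxipl at 0.60 ± 0.18. Of the regulators 2 of 8 rose (2 with each library left out) and 2 fell (0 to 3), with Cebpd at 1.83 ± 0.26 and Rxra at -0.30 ± 0.09. The part of these lists in the members' values was not tested.

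For the members under the filter, a fit with no low-count filter gave Retn 3.74 ± 1.29 for 6% EtOH against control after cessation (adjusted p 0.875, edgeR) and Pparg 0.39 ± 1.04. For Retn, the control libraries held 0, 0 and 2 reads and the 6% EtOH libraries 2, 25 and 2.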

How the data were processed

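RNA of 18 caput libraries was sequenced, in 6 groups of 3 from the labels. The authors deposited whole-number counts, 1 table for each library. GRCm39 (mm39), Trimmomatic, STAR and featureCounts are named in the submitters' processing notes; the sources used here give no versions, annotation or strand setting. Every row named a gene.

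Genes with low counts were dropped by filterByExpr (minimum count of 10, total of at least 15), leaving 18618 genes and 8 of the 10 members. TMM-scaled counts were tested by edgeR 4.0.16 (quasi-likelihood, 1 term per group, all 18 libraries, Benjamini-Hochberg over all genes, threshold 0.05). Standard errors were the size of the log2 fold change over the square root of the F statistic. A slope on the Adipoq level used the same fit. Correlations used log2 (CPM + 0.5) in Python 3.11.15. Alternatives were DESeq2 1.42.0, voom of limma 3.58.1, RLE size factors, other filters, fewer libraries and, chosen after seeing the data, counting 2 reads as 1. Scripts were tested on simulated data with the same spread for all genes, smaller than that of the low members, so this check does not cover them. Exon lengths, as the union over all transcripts of a gene, came from GENCODE M21, on an earlier build. The only coordinates given are those of the promoter windows, on build GRCm38.p6 and not on the build used for counting.

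Members and gene lists were chosen with earlier results of these data known. Named were the 10 members, the 10 genes most like Adipoq, up to 4 of the most abundant genes per list and part of the listed genes that passed. Further listed genes passed between times and are not described, among them Ebf1, Srebf1 and genes of the red blood cell and testicular germ cell lists.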

Additional observations from a re-analysis of the deposited data

How the results depend on the processing

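Of 667 values of members under alternatives, 640 kept direction and side of the threshold. In comparisons between groups 0 of 8 members passed under RLE size factors, limma voom or counting 2 reads as 1. The stricter filter tested only 4 members (not Adipoq, Lep, Plin1 and Cidec) and passed 0. DESeq2 passed 0 of 8, but gave an adjusted p for only 2 in 10% against control at 10 weeks and 5 in control time. No paired analysis was possible because the labels number no replicates across groups. With no low-count filter, genes past the threshold were 44, 736 and 60 at 10 weeks (6% against control, 10% against control, 10% against 6%), 51, 407 and 585 after cessation, 1740 for control time, and 88 and 385 for the 6% and 10% effects. Members past it were 1, 1, 1, 2 and 1 in the first 5, 1 for control time and 1 over all treatments: Fabp4 2.05, Lpl 1.07, Fabp4 (10% against 6%), Cfd 5.16 with Fabp4 1.61, Cfd 3.47, Cfd -3.00 and Cfd. For Fabp4 in 6% EtOH at 10 weeks the standard error was 0.41 without the filter and 1.35 with it, at nearly the same estimate. DESeq2 passed 73 genes for 10% at 10 weeks, 1 for 6% and 1 for 10% against 6% after cessation, 993 for control time and 2 for the 10% effect. limma voom passed 3 for control time. The 9 libraries of 10 weeks alone gave 1059 genes for 10%. The slope passed 4 genes with no filter and 3 with no group terms, Cidec among both (1.90 and 1.62). The causes were not tested.

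Leaving out 1 library gave 0 to 187 genes for 10% after cessation (187 without control replicate 2), 0 to 2747 for control time (2747 without control cessation replicate 2), 951 to 5798 over all treatments (lowest without 10% EtOH cessation replicate 3, highest without control cessation replicate 2; 12 of 18 omissions moved it by over 1.5 times), and 0 to 1 for the slope. Estimates that changed sign ran from -0.11 to 0.10 for Plin4 (6%, 10 weeks), -6.51 to 1.83 for Cfd (10%, 10 weeks), -0.71 to 3.19 for Cidec and -0.0229 to 0.83 for Lpl (6%, cessation), -0.59 to 1.67 for Adipoq and -0.14 to 0.13 for Plin4 (10%, cessation), -0.91 to 0.19 for Adipoq over all treatments, and -0.0083 to 0.0726 for the Plin4 slope. The size of the -6.51 is set by the prior count, since the 10% EtOH libraries left in that fit held no Cfd read. Plin4 in 10% EtOH after cessation was 0.0194 with RLE factors, 0.0107 with no filter, 0.02 by DESeq2 and 0.0177 on 9 libraries, and Cfd for 10% at 10 weeks was -2.03 by limma voom. A count of 0 limits levels to 0.151 to 0.283 CPM, so changes of the low members under that were not detectable. Larger changes could also fail to pass. Cfd, with a biological coefficient of variation of 127%, did not pass at 5.17 ± 1.79 in 6% EtOH against control after cessation. Those control libraries held 0, 3 and 1 Cfd reads, so the size of Cfd estimates that use them rests on counts near the floor.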
